A study of Mus musculus with 4 samples.

Results

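Pyruvate kinase M (Pkm) and the polypyrimidine tract binding (PTB) proteins Ptbp1, Ptbp2 and Ptbp3 were followed in mouse heart 7 days after myocardial infarction. These 4 genes, out of 21552 in the count table, were chosen by name, with earlier results of the same libraries known, and all their 69 rows out of 124326 in the table of splicing events were kept. The events table writes Pkm as Pkm2 and Ptbp3 by its older symbol Rod1. Because of that choice, the values of these genes and of their exons are a description without a p-value.

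The infarcted group was 2 C57BL/6 mice whose left anterior descending coronary artery had been tied off permanently, and the uninjured group was 2 C57BL/6 mice. Heart tissue labelled as the remote area, away from the infarct, gave 1 poly-A RNA library per mouse, sequenced as 50 bp single-end reads. The labels use the same name of the region for the uninjured hearts, and the age of the mice is not used here. The question put to the data was whether the choice between the alternative Pkm exons, and the mRNA of the proteins known to act on it, differed between infarcted and uninjured hearts.

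Pyruvate kinase makes pyruvate and ATP in the last step of glycolysis. The Pkm gene carries a pair of mutually exclusive exons: with exon 9 the mRNA encodes the M1 enzyme, the form of adult heart and skeletal muscle, and with exon 10 it encodes the M2 enzyme, whose activity is regulated and which is found in embryonic tissue and in dividing cells. PTB proteins bind pyrimidine-rich RNA and often repress exons, and PTBP1 acts with hnRNP A1 and hnRNP A2/B1 to repress exon 9 in cultured cells. PTBP1 is present in most cell types, PTBP2 is best known in neurons and PTBP3, or ROD1, was first described in blood cells.

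The exon pair is shown because the results turn on it. GENCODE M21 places exon 9 at chr9:59675029-59675195 and exon 10 at chr9:59675568-59675734, on the plus strand of GRCm38, and both lie in the coding sequence. The exons are 167 nt each, differ at 64 positions and share 103 (61.7% identity), which are aligned without a gap. Capitals mark the positions at which they differ.
Pkm exon 9 (M1): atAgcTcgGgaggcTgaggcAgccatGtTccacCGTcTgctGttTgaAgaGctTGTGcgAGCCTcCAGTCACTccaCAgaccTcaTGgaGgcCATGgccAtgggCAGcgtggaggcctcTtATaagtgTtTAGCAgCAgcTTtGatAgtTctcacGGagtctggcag
Pkm exon 10 (M2): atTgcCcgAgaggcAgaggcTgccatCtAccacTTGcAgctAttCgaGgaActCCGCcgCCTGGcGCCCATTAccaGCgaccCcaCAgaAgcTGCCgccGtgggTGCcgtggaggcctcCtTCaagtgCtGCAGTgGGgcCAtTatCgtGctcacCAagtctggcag

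The GC content was 62.9% in exon 10 and 56.3% in exon 9. Neither length is a multiple of 3, with a remainder of 2, so leaving out or adding both exons shifts the reading frame. In the events table, on mm9, the row of exon 9 spans chr9:59522836-59523002 and has the length of the GENCODE exon. The row that begins at the start of exon 10, chr9:59523375-59523849, is 475 nt long and runs 308 nt beyond the end of that exon. The upstream neighbour listed for that row is the end of exon 9, not of exon 8. The distance from the end of exon 9 to this start is 373 nt in both builds. No source used here says which junctions the authors counted for that row, so its percent is read below as use of the exon 10 start.

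Infarcted hearts had about 12-fold more exon 10 use than uninjured hearts, on a background in which exon 9 stayed the main form in every library. Exon 10 was included at 9.89% and 10.07% in infarcted hearts, against 1.07% and 0.57% in uninjured hearts. The infarcted pair lay close together and well above both uninjured values, and the groups did not overlap. These percents rest on 476 and 347 reads in infarcted hearts, and on 615 and 1093 reads in uninjured hearts. The 95% Wilson intervals, which cover counting error only, were 7.51 to 12.9% and 7.34 to 13.7% in infarcted hearts, against 0.552 to 2.33% and 0.252 to 1.19% in uninjured hearts. The means were 9.98 ± 0.127% in infarcted hearts and 0.82 ± 0.354% in uninjured hearts (SD, n = 2 each), a difference of 9.16 percentage points and a ratio of 12.2. In corrected inclusion reads, which the authors adjusted and which need not be whole, this was 47.08 and 34.94 in infarcted hearts, against 6.58 and 6.23 in uninjured hearts. These reads can be computed from the percents and totals, so they are not a second measure, and the intervals treat them as counts.

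Exon 9 gave the mirror image. It was included at 97.74% and 97.49% in infarcted hearts, against 99.76% and 99.87% in uninjured hearts. Both infarcted hearts were below both uninjured hearts. The share of reads that skipped exon 9 was 2.26% and 2.51% in infarcted hearts, against 0.24% and 0.13% in uninjured hearts, a ratio of means of 12.9. Read numbers were higher in this row, at 1397 and 946 in infarcted hearts and 1685 and 3127 in uninjured hearts. The Wilson intervals of 96.8 to 98.4% and 96.3 to 98.3% lay below those of uninjured hearts, 99.4 to 99.9% and 99.7 to 99.95%. The junctions counted for this row are not given either. A splice site row with the same start had 460 and 335 reads in infarcted hearts, against 612 and 1091 in uninjured hearts. If a molecule was counted at several junctions, these intervals are too narrow.

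**Figure D1:**
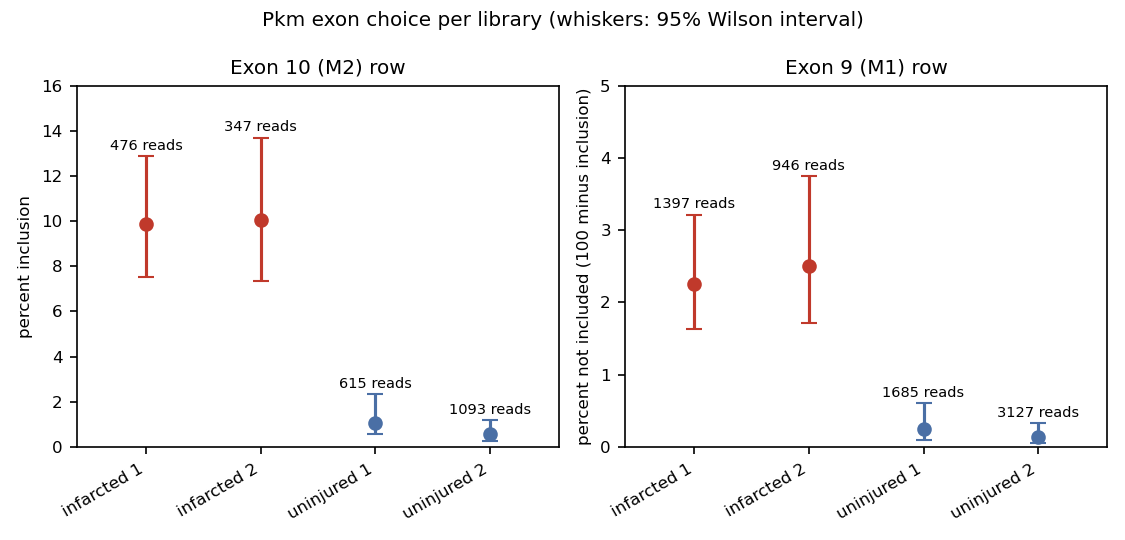
Percent of reads that skip Pkm exon 9 (M1) and percent that include exon 10 (M2) in each library, infarcted hearts left and uninjured hearts right, with 95% Wilson intervals as whiskers. Exon 10 stands near 10% in both infarcted libraries and at 1.07% or less in the uninjured ones, and skipping of exon 9 stands above 2% in the infarcted libraries only.

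The rows of the exon pair were not simple complements. Their percents summed to 107.63 and 107.56 in infarcted hearts, against 100.83 and 100.44 in uninjured hearts. Exon 10 inclusion was 4.38 and 4.01 times the exon 9 skipping in infarcted hearts, and 4.46 and 4.38 times in uninjured hearts. So the ratio between the rows lay between 4.01 and 4.46 in every library, and the absolute share of M2 mRNA depends on which row is read, whereas the fold between groups was 12.2 by one row and 12.9 by the other.

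The fit over all 5490 exons with enough reads was an edgeR quasi-likelihood test of inclusion against exclusion reads. The pair's log2 odds ratios of inclusion, infarcted over uninjured, were -3.81 ± 0.57 for exon 9 and 3.78 ± 0.57 for exon 10 (SE). No exon was called at an adjusted p below 0.05 (0.00% of 5490), neither member of the pair included. Without adjustment 387 exons were under 0.05 by edgeR, and limma on the logit of inclusion called 0 exons with 449 under 0.05 without adjustment. The groups did not overlap for either exon of the pair, which held for 39.9% of all exons tested. The odds ratios moved most without the second uninjured heart, to -3.33 for exon 9 and 3.24 for exon 10.

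Of the other Pkm rows, a 117 nt exon was included at 0.03% and 0.15% in infarcted hearts, against 0.04% and 0.18% in uninjured hearts, so it was nearly absent everywhere. A pair of alternative 5′ splice sites of the first exon had enough reads of both forms to be fitted. The more used of these was at 99.93% and 99.90% in infarcted hearts, against 99.92% and 99.68% in uninjured hearts, and the groups overlapped.

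Total Pkm mRNA (ENSMUSG00000032294, chromosome 9) was abundant, and its lower values in infarcted hearts were not called as a change. Levels are given as CPM, counts scaled to library size after TMM normalization. Pkm had 897 and 756 CPM in infarcted hearts, against 941 and 1279 CPM in uninjured hearts. Both infarcted hearts were below both uninjured hearts, but the spread between the uninjured hearts was wide. The means were 827 ± 99.7 CPM in infarcted hearts and 1110 ± 239 CPM in uninjured hearts (SD, n = 2 each), a log2 fold change of -0.43 ± 0.24 (SE) that was not called.

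Multiplying the Pkm level of each library by its exon 10 percent gives an estimate of exon 10 mRNA, not a measured level. It came to 88.7 and 76.1 CPM in infarcted hearts, against 10.1 and 7.29 CPM in uninjured hearts. The groups were far apart, with means of 82.4 ± 8.90 CPM in infarcted hearts and 8.68 ± 1.97 CPM in uninjured hearts, a ratio of 9.50. With exon 9 skipping in place of exon 10 inclusion, the estimate was 20.3 and 19.0 CPM in infarcted hearts, against 2.26 and 1.66 CPM in uninjured hearts. All other Pkm mRNA was 744 ± 90.8 CPM in infarcted hearts and 1101 ± 241 CPM in uninjured hearts, so Pkm mRNA without exon 10 outweighed that with it in all 4 libraries.

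Ptbp1, the repressor of exon 9 known from cultured cells, was higher in infarcted hearts. Its gene (ENSMUSG00000006498, chromosome 10) had 89.2 and 71.3 CPM in infarcted hearts, against 36.9 and 33.3 CPM in uninjured hearts. The lower infarcted heart was above the higher uninjured heart by a wide margin, and the uninjured hearts were close to each other. The means were 80.2 ± 12.6 CPM in infarcted hearts and 35.1 ± 2.58 CPM in uninjured hearts (SD, n = 2 each), a log2 fold change of 1.19 ± 0.19 (SE), or 2.29-fold.

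Ptbp3 (ENSMUSG00000028382, chromosome 4) had 58.7 and 51.7 CPM in infarcted hearts, against 33.1 and 24.8 CPM in uninjured hearts. Again both infarcted hearts were above both uninjured hearts. The means were 55.2 ± 4.95 CPM in infarcted hearts and 29.0 ± 5.87 CPM in uninjured hearts (SD, n = 2 each), a log2 fold change of 0.93 ± 0.20 (SE), or 1.91-fold.

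Ptbp2 (ENSMUSG00000028134, chromosome 3), the neuronal paralog, had 13.7 and 19.95 CPM in infarcted hearts, against 17.2 and 14.0 CPM in uninjured hearts. The groups overlapped, and the spread within the infarcted group exceeded the difference of means, 16.8 ± 4.40 CPM in infarcted hearts and 15.6 ± 2.26 CPM in uninjured hearts (SD, n = 2 each). The log2 fold change was 0.11 ± 0.23 (SE). Its sign turned on single libraries, at -0.21 without the second infarcted heart.

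**Figure D2:**
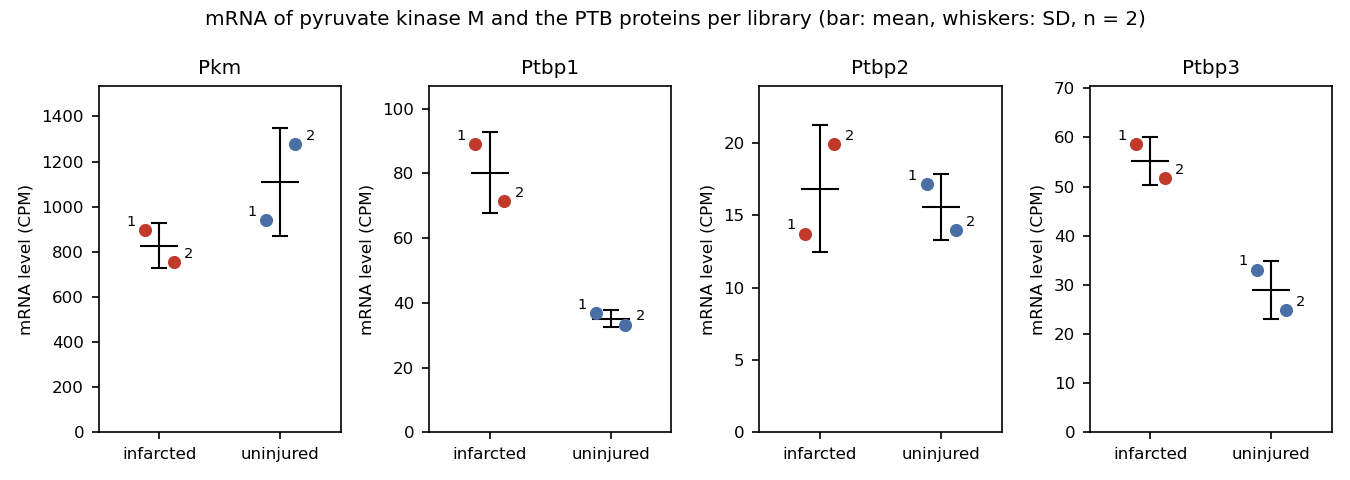
mRNA level in CPM of Pkm, Ptbp1, Ptbp2 and Ptbp3 in each library, infarcted left and uninjured right of each panel, with the mean as a bar and the SD as whiskers (n = 2 each). Ptbp1 and Ptbp3 stand apart between the groups, at 80.2 and 55.2 CPM on average in infarcted hearts and 35.1 and 29.0 CPM in uninjured hearts, whereas Ptbp2 overlaps.

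Across all 13905 genes tested, edgeR called 33.0% at an adjusted p below 0.05, and 2 of the 4 members, Ptbp1 and Ptbp3, were among them, both higher, where 18.3% of genes were called higher. The groups did not overlap for 3 of the 4 members, against 70.0% of all genes tested (36.2% higher in infarcted hearts and 33.8% lower). Since the members were chosen with these values known, nothing is read from those shares. Without the second uninjured heart edgeR called 102 genes higher and 8 lower, against 2546 and 2037 with all libraries, and neither Ptbp1 (log2 fold change 1.11) nor Ptbp3 (0.73) was called.

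The members differed in level once gene length was taken into account. Per kilobase of transcript, Pkm had 340 ± 41.0 CPM in infarcted hearts and 456 ± 98.2 CPM in uninjured hearts. Ptbp1 was the most abundant PTB mRNA per kilobase, at 28.1 and 22.5 CPM per kb in infarcted hearts, against 11.7 and 10.5 CPM per kb in uninjured hearts. Ptbp3 had 8.57 and 7.54 CPM per kb in infarcted hearts, against 4.83 and 3.62 CPM per kb in uninjured hearts. Ptbp2 had 3.64 and 5.28 CPM per kb in infarcted hearts, against 4.55 and 3.70 CPM per kb in uninjured hearts. The order in infarcted hearts was therefore Ptbp1, Ptbp3 and Ptbp2, with no overlap between neighbours, and in uninjured hearts Ptbp3 and Ptbp2 overlapped below Ptbp1.

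The balance among the paralogs shifted with these levels. Ptbp1 was 7.73 and 4.26 times Ptbp2 per kilobase in infarcted hearts, against 2.56 and 2.84 times in uninjured hearts. Ptbp3 was 2.35 and 1.43 times Ptbp2 in infarcted hearts, against 1.06 and 0.978 times in uninjured hearts. The ratio of Ptbp1 to Ptbp3 was 3.28 and 2.98 in infarcted hearts, against 2.41 and 2.90 in uninjured hearts, closer between groups than the other ratios. Ptbp2 was 9.02% and 15.0% of the summed PTB mRNA in infarcted hearts, against 21.6% and 20.8% in uninjured hearts. The sum itself was 40.3 and 35.3 CPM per kb in infarcted hearts, against 21.04 and 17.8 CPM per kb in uninjured hearts.

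**Figure D3:**
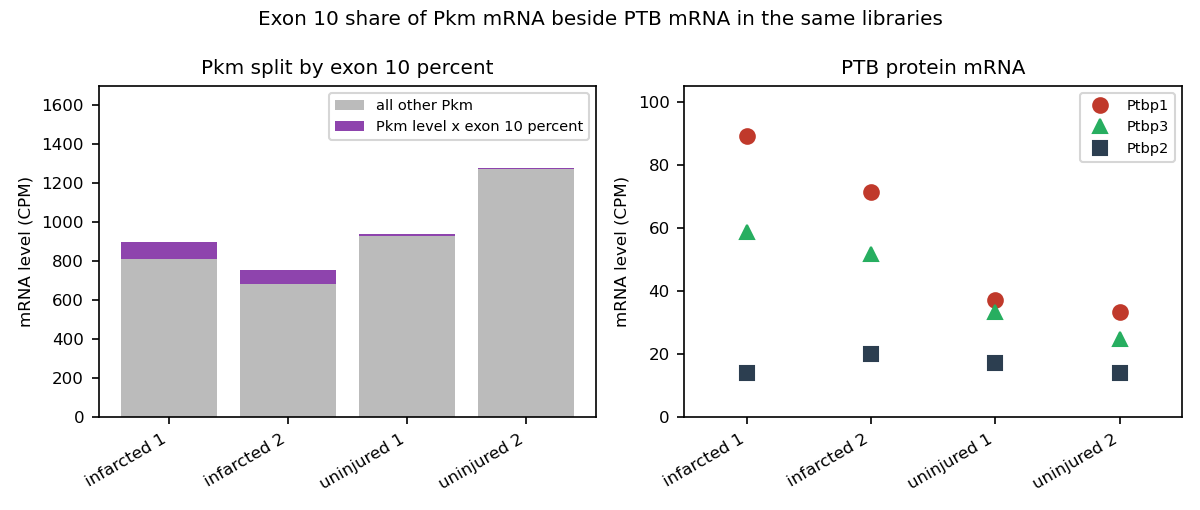
Left, Pkm CPM of each library split into the level times exon 10 percent (purple) and the rest (grey). Right, CPM of Ptbp1, Ptbp3 and Ptbp2 in the same libraries, infarcted first. The purple part is 88.7 and 76.1 CPM in the infarcted libraries, with Ptbp1 at 89.2 and 71.3 CPM. In the uninjured libraries it is 10.1 and 7.29 CPM, with Ptbp1 at 36.9 and 33.3 CPM. Between the infarcted libraries the purple part follows total Pkm (897 and 756 CPM), since exon 10 stood at 9.89% and 10.07%.

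Side by side, both infarcted libraries were higher in exon 10, Ptbp1 and Ptbp3 than both uninjured libraries. Within the infarcted pair exon 10 was at 9.89% and 10.07%, with Wilson intervals that overlapped, so these values give no order. Ptbp1 was at 89.2 and 71.3 CPM in the same hearts, and Ptbp3 at 58.7 and 51.7 CPM. In the uninjured pair exon 10 was at 1.07% and 0.57%, again with overlapping intervals, and Ptbp1 and Ptbp3 were higher in the first uninjured heart. A set of 4 libraries allows no correlation, so none is given. Markers of other cells moved with the same groups. Summed fibroblast markers were 6643 and 5559 CPM in infarcted hearts, against 772 and 738 CPM in uninjured hearts, with 4 of 7 called higher. Most of the sum in infarcted hearts was the matrix genes Col1a1, Col3a1 and Postn, with means of 1547, 2586 and 1140 CPM. Pdgfra, Dcn and Tcf21 were higher by only 0.63, 0.66 and 0.31 on the log2 scale and were not called. Macrophage markers summed to 330 and 350 CPM in infarcted hearts, against 110 and 94.6 CPM in uninjured hearts, with 7 of 7 called higher. Markers of proliferating cells summed to 155 and 64.9 CPM in infarcted hearts, against 10.9 and 6.40 CPM in uninjured hearts, with 5 of 6 called higher. Cardiomyocyte markers, all 6 of them detected in every library, summed to 28893 and 25746 CPM in infarcted hearts, against 42262 and 53223 CPM in uninjured hearts, with 3 of 6 called lower. Their part in the exon and PTB values was not tested, and in bulk tissue fewer cells of a type and less RNA per cell cannot be told apart.

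Of the remaining lists, endothelial markers summed to 913 and 723 CPM in infarcted hearts, against 713 and 681 CPM in uninjured hearts, with 0 of 5 called by edgeR. Neuronal markers, relevant to Ptbp2, summed to 4.96 and 8.06 CPM in infarcted hearts, against 0.960 and 1.34 CPM in uninjured hearts, nearly all of it Tubb3, while Rbfox3, Snap25 and Syt1 were too low to be tested. Smooth muscle and pericyte markers summed to 877 and 995 CPM in infarcted hearts, against 845 and 825 CPM in uninjured hearts, with 2 of 5 called higher. The largest part of that sum was Rgs5, at 592 and 464 CPM in infarcted hearts, against 674 and 586 CPM in uninjured hearts. The called genes were Tagln and Cnn1, with log2 fold changes of 1.72 and 2.88, so the sum hides their rise. Lymphocyte markers (1 of 5 called higher) and neutrophil markers (1 of 3) stayed at or below 25.0 CPM in sum in every library. Atrial muscle markers were uneven, at 295 and 2009 CPM in infarcted hearts, against 88.8 and 49.5 CPM in uninjured hearts. In the first infarcted library nearly all of this was Nppa (294 CPM), with Myl4 at 1.34 CPM and Myl7 at 0.080 CPM. The second infarcted library had 1456 CPM of Nppa, 361 CPM of Myl4 and 132 CPM of Myl7. Myl4 was at 1.42 and 2.44 CPM in uninjured hearts. The second infarcted library was thus the highest in atrial markers. Without it, the exon 10 difference was 9.07 percentage points, and the log2 fold changes were 1.32 for Ptbp1 and 0.99 for Ptbp3.

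The PTB genes are themselves spliced through a 34 nt exon whose skipping shifts the reading frame, a known brake that PTB proteins place on their own and each other's mRNA. The exons are shown to compare the paralogs, in transcript orientation, from GENCODE M21 on GRCm38, at chr10:79862014-79862047 (plus strand) for Ptbp1, chr3:119724612-119724645 (minus strand) for Ptbp2 and chr4:59485339-59485372 (minus strand) for Ptbp3. Capitals in Ptbp2 and Ptbp3 mark positions that differ from Ptbp1.
Ptbp1 34 nt exon: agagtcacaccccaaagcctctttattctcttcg
Ptbp2 34 nt exon: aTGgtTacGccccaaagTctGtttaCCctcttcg
Ptbp3 34 nt exon: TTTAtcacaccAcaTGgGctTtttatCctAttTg

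The Ptbp2 exon matched that of Ptbp1 at 26 of 34 positions (76.5%), and the Ptbp3 exon matched it at 22 (64.7%). In GENCODE, skipping of the exon marks 2 Ptbp1 transcripts and 1 Ptbp2 transcript annotated as targets of nonsense-mediated decay. The Ptbp3 exon above has no row of its own among the events used here.

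The Ptbp1 exon (mm9 chr10:79324759-79324792) was included at 98.11% and 98.56% in infarcted hearts, against 94.59% and 96.84% in uninjured hearts. Both infarcted hearts were above both uninjured hearts, but the exclusion reads summed to fewer than 5 over all libraries, so the row was not fitted. With 73 and 48 reads in infarcted hearts and 26 and 22 reads in uninjured hearts, the Wilson intervals were 92.6 to 99.8% and 89.1 to 99.6%, against 81.1 to 99.3% and 78.2 to 99.2%, and they overlapped. A difference in this exon was not detectable at this depth. Ptbp1 mRNA thus carried the exon in nearly all reads of every library.

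The Ptbp2 exon (mm9 chr3:119427530-119427563) was skipped far more often. It was included at 35.06% and 72.17% in infarcted hearts, against 75.16% and 54.30% in uninjured hearts. The first infarcted library was the lowest and the other infarcted library was nearly as high as the highest, so the groups overlapped. The depth was low, at 11 and 25 reads in infarcted hearts and 17 in each uninjured heart, and the Wilson intervals were 15.2 to 64.6% and 52.4 to 85.7%, against 52.7 to 90.4% and 31.0 to 73.8%. The mean difference of -11.1 percentage points, between 53.6 ± 26.2% in infarcted hearts and 64.7 ± 14.8% in uninjured hearts (SD, n = 2 each), was smaller than the spread within the infarcted group. The log2 odds ratio was -0.37 ± 1.03 (SE). Leaving out 1 library turned its sign, at 0.49 without the first infarcted heart and 0.34 without the first uninjured heart.

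**Figure D4:**
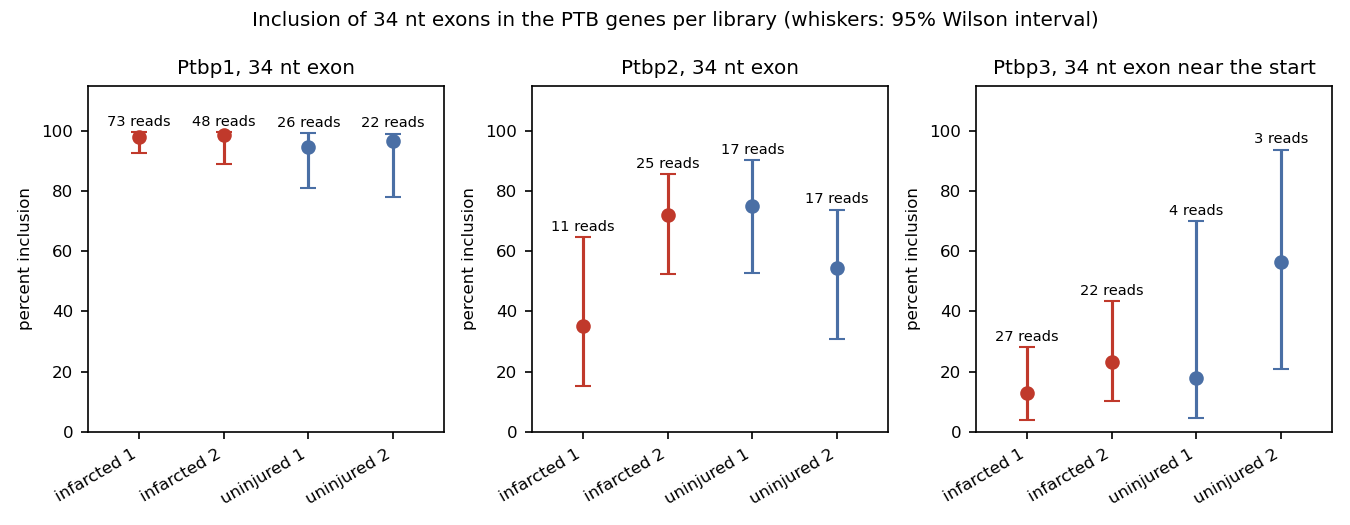
Percent inclusion of 34 nt exons of the PTB genes in each library, infarcted left and uninjured right, with 95% Wilson intervals as whiskers and the number of reads beside the points. The Ptbp1 exon lies above 94% in every library, and the Ptbp2 exon varies between 35.06% and 75.16% with intervals that overlap.

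Another exon of 34 nt, near the start of Ptbp3 (mm9 chr4:59559021-59559054) and unlike the others in sequence, with 5 of 34 positions in common with the Ptbp1 exon, was included at 12.85% and 23.23% in infarcted hearts, against 17.81% and 56.52% in uninjured hearts. The uninjured values rest on 4 and 3 reads, so no comparison was made. A 3′ splice site choice of 3 nt in Ptbp2 was used at 41.03% and 58.62% in infarcted hearts, against 51.43% and 53.33% in uninjured hearts. Those groups overlapped, with a log2 odds ratio of -0.20 ± 0.58 (SE). A 56 nt exon of Ptbp1 had no inclusion read in any library.

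Of the 22 exon rows of the 4 genes, 13 had at least 10 reads in each library, and 3 of these also had at least 5 reads of each form, namely the Pkm pair and the Ptbp2 exon. In the other 10 the minor form stayed under 5 reads over all libraries. Of the 47 splice site rows, 20 had at least 10 reads in each library and 3 were fitted, 2 in Pkm and 1 in Ptbp2. No splice site in the series was called by edgeR (0.00% of 2593, with 147 under 0.05 without adjustment) or by limma, and the groups did not overlap for 35.2% of them.

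Genes of glycolysis and pyruvate handling are the pathway around Pkm. Of 30 listed genes, 29 were tested, 5 rose, 9 fell and 15 did not pass, with a median log2 fold change of -0.17, against 0.02 for all genes tested. Of all genes tested 18.3% were called higher and 14.6% lower. The 5 of 29 that rose are near the first share, and the 9 of 29 that fell are above the second. The list was not tested as a set. On library totals alone, a scale on which the median of all genes shifts by 0.35, 7 were higher and 7 lower. Without the second uninjured heart edgeR called 1 higher and 0 lower, with 16 of the list under 0.05 before adjustment. Pklr, the liver and red cell pyruvate kinase, had no counts in any library.

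Slc16a3, the lactate exporter MCT4, rose most in the list, to 8.84 ± 0.196 CPM in infarcted hearts, against 1.01 ± 0.165 CPM in uninjured hearts (SD, n = 2 each), a log2 fold change of 3.11 ± 0.27 (edgeR adjusted p = 7.9e-06). Pfkp, the platelet-type phosphofructokinase, rose by 1.25 ± 0.19, the enolases Eno2 and Eno1 by 1.39 ± 0.35 and 0.89 ± 0.22, and Pfkfb3, which makes the activator of phosphofructokinase, by 0.80 ± 0.29 on the log2 scale. Their adjusted p-values ranged up to 0.0474.

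The muscle isozymes were among those that fell. Pfkm, the muscle phosphofructokinase, had 513 and 458 CPM in infarcted hearts, against 850 and 1163 CPM in uninjured hearts, a log2 fold change of -1.05 ± 0.24 (edgeR adjusted p = 0.00508). Eno3, the muscle enolase, changed by -1.13 ± 0.25, Pgam2, the muscle phosphoglycerate mutase, by -1.15 ± 0.23, and Slc2a4, the insulin-dependent glucose carrier GLUT4, by -1.18 ± 0.22. Ldhb, the heart-type lactate dehydrogenase subunit, changed by -1.36 ± 0.25, and the mitochondrial pyruvate carrier genes Mpc1 and Mpc2 by -0.91 ± 0.22 and -1.33 ± 0.23. Pfkfb1, an isozyme of Pfkfb3, changed by -1.73 ± 0.25, and Bpgm, the bisphosphoglycerate mutase, by -0.69 ± 0.20. Ldha, the muscle-type lactate dehydrogenase subunit, was at 535 ± 44.5 CPM in infarcted hearts and 502 ± 121 CPM in uninjured hearts and was not called.

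Gapdh, at 0.524 to 0.560 CPM in infarcted hearts and 0.605 to 0.710 CPM in uninjured hearts, and Pgam1 (0.760 and 0.882 CPM in infarcted hearts, against 0.626 and 0.589 CPM in uninjured hearts) were under 1 CPM in every library. Both genes, like Eno1, have near-identical copies elsewhere in the mouse genome, so their counts and directions are uncertain.

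**Figure D5:**
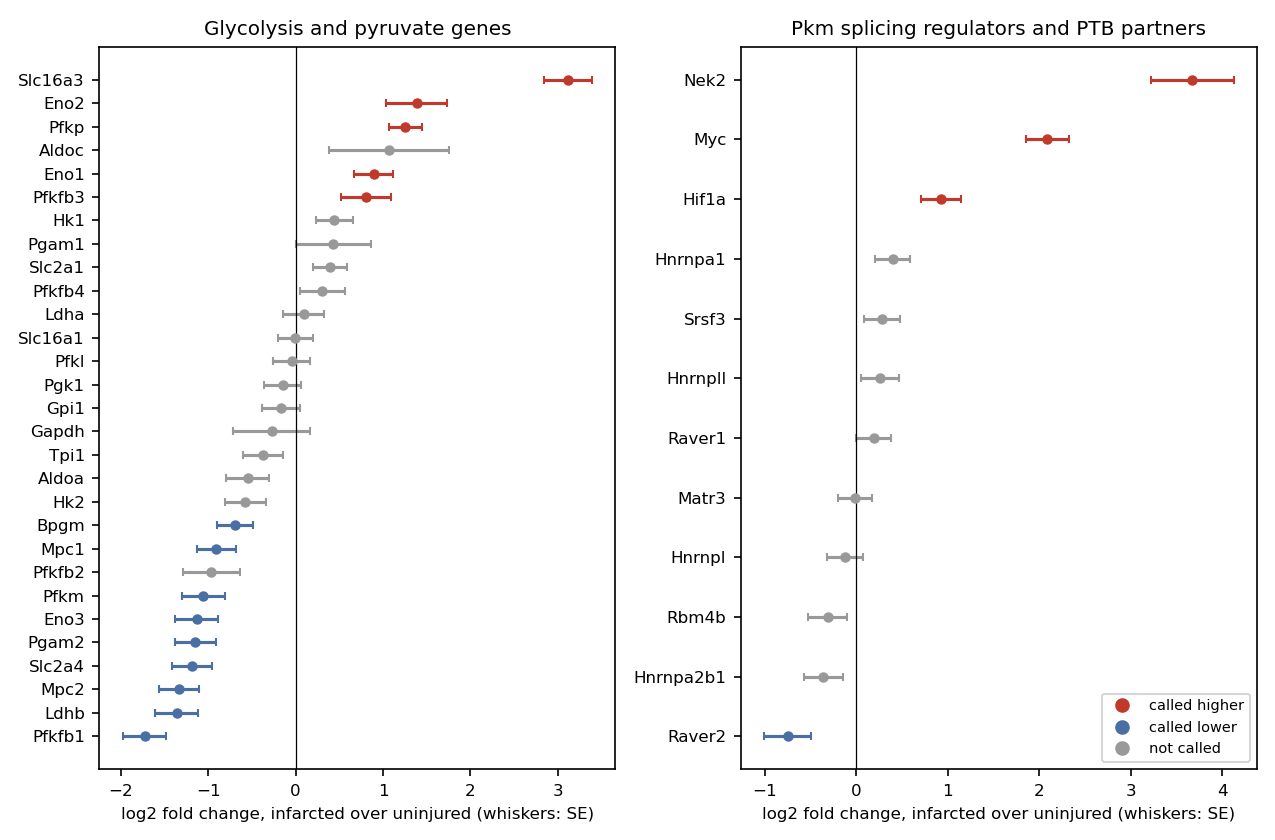
log2 fold change, infarcted over uninjured, with SE, for the tested genes of glycolysis and pyruvate handling (left) and of Pkm splicing regulators and PTB partners (right), with called genes in colour. On the left the 5 genes that rose lie between 0.80 and 3.11 and the 9 that fell between -1.73 and -0.69, with Aldoc (1.07) and Pfkfb2 among them but not called, and Nek2, Myc and Hif1a stand apart on the right.

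Among proteins described as acting on the Pkm exon pair, their upstream factors and PTB partners, 3 of 12 tested genes rose, 1 fell and 8 did not pass, a called share near the 33.0% of all genes tested. The median log2 fold change was 0.22, and on library totals 7 were higher and 0 lower. Myc, a transcription factor reported to raise PTB and hnRNP A levels in tumour cells, had 15.4 and 11.6 CPM in infarcted hearts, against 3.15 and 3.19 CPM in uninjured hearts. Its groups were well apart, with a log2 fold change of 2.09 ± 0.24 (edgeR adjusted p = 5.9e-05). Nek2, a mitotic kinase reported to favour exon 10 in myeloma cells, had 5.18 and 2.91 CPM in infarcted hearts, against 0.438 and 0.207 CPM in uninjured hearts, a log2 fold change of 3.67 ± 0.45 (edgeR adjusted p = 0.00013). Nek2 is a gene of dividing cells, and the markers of proliferating cells given above were higher in the same libraries. Hif1a, the oxygen-regulated transcription factor, rose by 0.92 ± 0.22 on the log2 scale (edgeR adjusted p = 0.0066).

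The hnRNP partners of PTBP1 on Pkm did not pass. Hnrnpa1 had 90.1 and 110 CPM in infarcted hearts, against 77.0 and 74.6 CPM in uninjured hearts, a log2 fold change of 0.40 ± 0.19. Hnrnpa2b1 had 312 and 296 CPM in infarcted hearts, against 373 and 408 CPM in uninjured hearts, a log2 fold change of -0.36 ± 0.21. So the values of these genes lay on opposite sides of 0, and neither was called. Raver2, a PTB corepressor, fell by 0.75 on the log2 scale (SE 0.25, edgeR adjusted p = 0.0352). Rbm4 was not analysed here. Without the second uninjured heart edgeR called none of this list, with 3 under 0.05 before adjustment; DESeq2 on all libraries called 3 higher and 1 lower.

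Exons of genes known as PTB targets were set beside the Pkm pair. Of 11 such genes, 6 had events with enough reads, giving 18 exons and 1 splice site. edgeR called 0 of the 19, with 8 under 0.05 before adjustment (4 exons by limma on the logit, which also called 0), beside 387 of all 5490 exons. The 8 became 2 without the second uninjured heart, 4 without the first infarcted heart and 5 without the first uninjured heart. The groups did not overlap for 14 of 19 (73.7%), against 39.9% of all exons tested. Several of these rows are the 2 partners of a mutually exclusive pair in 1 gene and so are not independent.

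The smallest p-values were in the tropomyosins Tpm1 and Tpm2, actin filament proteins of the sarcomere and the cytoskeleton whose alternative exons distinguish muscle from other cells. In Tpm1 the dominant 126 nt exon was included at 99.78% and 99.70% in infarcted hearts, against 99.95% and 99.94% in uninjured hearts, and its partner of the same length at 0.18% and 0.33% in infarcted hearts, against 0.07% and 0.05% in uninjured hearts. A Tpm1 exon of 79 nt was included at 98.27% and 98.16% in infarcted hearts, against 99.33% and 99.53% in uninjured hearts. The Tpm1 exons of 76 nt stood at 99.85% and 99.92% in infarcted hearts, against 99.96% and 99.98% in uninjured hearts, for the dominant one, and at 0.14% and 0.10% in infarcted hearts, against 0.04% and 0.02% in uninjured hearts, for the minor one. In each Tpm1 pair the minor form was higher in both infarcted hearts than in both uninjured hearts, and the dominant Tpm1 exons remained above 98% in every library.

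A Tpm2 exon of 76 nt was included at 80.56% and 85.14% in infarcted hearts, against 95.65% and 91.55% in uninjured hearts. The mutually exclusive exons of the alpha-actinin gene Actn1, named here after their values were seen, showed the widest difference of the list. Its 66 nt exon was included at 45.14% and 57.25% in infarcted hearts, against 70.97% and 72.84% in uninjured hearts, and its 81 nt exon at 50.00% and 37.93% in infarcted hearts, against 23.53% and 21.35% in uninjured hearts. None of these exons was called.

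The genes whose levels over the 4 libraries were most like those of each member were ranked by the root mean square difference of centred log2 CPM, among 7589 genes of at least 10 CPM on average. For Pkm these were Ptdss2 (0.0156), Slc29a1 (0.0195), Zcchc17 (0.0204) and Ano8 (0.0210). For Ptbp1 they were Pabpc1 (0.0339), Cnn3 (0.0472), Armcx2 (0.0473) and Aoc3 (0.0537). For Ptbp3 they were Ptpn12 (0.0152), Nfic (0.0325), Wipf1 (0.0390) and Pip4k2a (0.0443). With 4 libraries such a likeness is a description only.

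Library totals were 46232326 and 35715115 counts in infarcted hearts, against 53944859 and 70885393 counts in uninjured hearts, and mitochondrial genes took 36.7 to 48.4% of them. The spread among mice within a group, as edgeR's common biological coefficient of variation, was 19.3%.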

How the data were processed

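Per the labels' protocols, poly-A RNA of mouse heart was sequenced on an Illumina GAII. The authors deposited raw counts per gene, whole numbers that were not normalized, and a table of events with a percent inclusion or percent site use for each library and corrected inclusion and exclusion reads. Both are on mm9, per the submitters' processing notes; no source used here gives the aligner, counter, events tool, correction or strand setting, so reads of overlapping antisense genes cannot be told apart. The percent equals inclusion over all reads within 0.06 points in 100% of values with at least 10 reads. This equality is no independent check, because the corrected reads can be computed from the percent and the total.

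The 4 genes and the lists were chosen with earlier results of these data known. Gene symbols came from GENCODE M21, which matched 20450 of 21552 identifiers and left 1102 unmatched. Counts were tested in edgeR 4.0.16 (R 4.3.3) with TMM, filterByExpr and the robust quasi-likelihood F-test over 13905 genes. The threshold was 0.05 on the Benjamini-Hochberg adjusted p. CPM use TMM library sizes, and CPM per kb divide by the length of 1 GENCODE transcript per gene. Inclusion and exclusion reads, rounded, were tested in edgeR as a form-by-group interaction with a term per library, over events with at least 10 reads in each library and 5 of each form in all. Of each choice of splice sites the first listed was left out. Wilson intervals cover 95%. Standard errors are the absolute estimate over the square root of F. Exons were matched to GENCODE by length and distance to their neighbours (Pkm exon 10 by its start only), with no conversion of coordinates, and sequences are from the GENCODE transcripts.

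The rule for named genes took the 4 members, every called gene of the glycolysis and regulator lists (at least 6 of each), the 6 tested PTB target events with the smallest p, and 4 genes most like Pkm, Ptbp1 and Ptbp3. Alternatives were RLE scaling, library totals, no filter, DESeq2 1.42.0, limma 3.58.1 on the logit with 0.5 reads added, at least 20 reads, a replicate block, each library left out and, chosen after seeing the data, a fitted trend with transcript length removed. The fits were tested on simulated data. With 2 mice per group they have 2 residual degrees of freedom and borrow their spread from all genes.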

Additional observations from a re-analysis of the deposited data

How the results depend on the processing

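The signs of the Pkm, Ptbp1 and Ptbp3 log2 fold changes and of the Pkm exon odds held under every alternative run for them. On library totals the median of all genes shifted by 0.35, genes called were 4386 higher and 786 lower, the regulator list had 7 higher and 0 lower, and the log2 fold changes were -0.083 for Pkm, 1.53 for Ptbp1, 0.47 for Ptbp2 and 1.27 for Ptbp3. With the length trend removed Ptbp3 was at 0.65. Leaving out each library in turn, edgeR called 102 to 2144 genes higher and 8 to 1824 lower; the lowest counts were without the second uninjured heart. The glycolysis list then had 1 to 4 higher and 0 to 11 lower, and the regulator list 0 to 3 higher and 0 to 1 lower. The log2 fold changes ranged over -0.64 to -0.19 for Pkm, 0.94 to 1.32 for Ptbp1, -0.21 to 0.28 for Ptbp2 and 0.73 to 1.15 for Ptbp3, and the log2 odds over -4.21 to -3.33 for exon 9 and 3.24 to 4.29 for exon 10. Splice sites called were 0 to 7 with a library left out, 1 with at least 20 reads and 2 with the replicate block, against 0 in the report. Same-numbered libraries shared a correlation of deviations of 0.108, and the labels do not say that numbers pair mice; with the replicate block edgeR called 2950 genes higher and 2340 lower, 0 exons, and Ptbp1 stood at 1.19, Ptbp3 at 0.94, exon 9 at -3.80 and exon 10 at 3.76. In all, 127 of 158 values under alternatives stayed within the spread or 1.5 times the count, and 31 moved. The 127 include counts of 0 that stayed at 0. They also include changes of sign, as for the Ptbp2 34 nt exon, whose log2 odds went from -0.37 to 0.49 without the first infarcted heart. The cause of the 31 moves was not tested. Low read numbers limit the PTB exons, and 2 mice per group limit everything else.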
